A study of Homo sapiens with 9 samples.

Results

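HEK293 cells, a human embryonic kidney line, that stably expressed the MEK1 mutant F53S were compared with HEK293 cells that expressed WT MEK1. The comparison used the 3 arrays titled for F53S and the 3 titled for WT, which are 6 of the 9 arrays of the series, and F53S and WT arrays were set against each other within the slide that carried them. In F53S a phenylalanine of MEK1 is replaced by serine, a change found in RASopathies, and the other 3 arrays held cells with K57N, a change of a lysine to asparagine found in cancers. All 3 lines carried an HA-tagged MEK1 from a pQCXIP plasmid with puromycin selection and were grown in serum without added EGF. Each protein was represented by 1 stable line, and whether a line was a pool or a clone is not given in the sources used here. The spread between replicates is therefore that of cultures of 1 line and holds no difference between separately made lines. Of 16 genes that mark HEK293 cells (kidney development genes such as PAX2, LHX1 and SALL1, neurofilaments, vimentin and keratins), 14 were well above background on all 6 arrays, and of 19 markers of other cell types 7 were, while 6 were on none. The 10 tested markers of other cell types had a median log2 difference of -0.13 between F53S and WT cells, with 1 higher and 5 lower in all 3 pairs, where 16.1% of all genes were higher and 15.7% lower.

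MEK1 is the kinase that phosphorylates ERK, at the end of the cascade from RAS through RAF, and ERK in turn drives a known set of genes. Immediate early genes such as FOS and EGR1 are transcribed within minutes through serum response factor and its ETS partners, the PEA3 factors ETV1, ETV4 and ETV5 accumulate as ERK output persists, and secreted and membrane proteins such as MMP1 and IL11 follow. DUSP phosphatases and the Sprouty and SPRED proteins are induced by the pathway and act back on it as inhibitors. RASopathy mutations are known for a milder activation of this pathway than cancer mutations.

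Levels are given as the log2 of the processed signal relative to the 75th percentile of the array, so that 0 is the signal at that percentile, and pair 1, 2 or 3 stands for the F53S array minus the WT array of the same number. Pair 1 was on slide 1, where the 75th percentile signal was 285 for WT and 245 for F53S cells, and pairs 2 and 3 were on slide 2, where it lay between 695 and 816. On slide 1 between 23714 and 23930 probes were well above background on the WT and F53S arrays, and on slide 2 between 28256 and 29324. Within a slide each line always held the same column, so line and column cannot be told apart. The MAP2K1 probe (chr15:66783224-66783283 of hg19) read 2.36, 2.34 and 2.42 on the WT arrays and 2.5, 2.39 and 2.46 on the F53S arrays, a log2 difference of 0.08 (SE 0.08, adjusted p = 1.0, limma). Whether this probe lies in the part of the transcript that the plasmid carried is not known here, so it does not check the labels.

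Genes that differed by at least 1.5-fold in every pair were mostly higher in F53S than in WT cells, but this excess depended on which arrays and probes were used. At least 1.5-fold in each of the 3 pairs, 46 of 18306 genes (0.251%) were higher and 3 (0.0164%) were lower. With no filter on dim probes 177 were higher and 113 lower. With 1 array left out, and so 2 pairs and a looser filter, the direction of the excess turned without WT replicate 1 (76 higher and 91 lower), and the counts were 97 and 74 without WT replicate 2, 90 and 46 without WT replicate 3, and between 111 and 177 higher and 28 and 49 lower without an F53S replicate. Counted by sign alone there was no such imbalance, with 2956 genes (16.1%) higher in all 3 pairs and 2881 (15.7%) lower. Over all 3 pairs and with the filter, the imbalance was larger at larger limits: 143 genes (0.781%) were higher by at least 0.32 on the log2 scale in each pair and 76 (0.415%) lower, and 15 (0.0819%) were at least 2-fold higher and 0 lower. Of the 46 higher genes 21 were in at least 1 of 5 lists of known ERK targets and regulators, and these 21 were 30.4% of the 69 tested genes that the lists held together. The set included the PEA3 factors ETV4, ETV5 and ETV1, the inhibitors DUSP6, SPRY4, SPRY2 and DUSP5, the immediate early genes EGR1, FOS, FOSB, FOSL1, JUNB, IER2 and ARC, and the late targets MMP1, IL11, VGF, GDF15, EMP1 and PHLDA2. PHLDA1, a further readout of ERK output, completed the 21. The lists were drawn up with earlier results of these data known, so this share and the list counts below are a description. The study itself names MMP1, GDF15, EMP1, PHLDA1 and PHLDA2 as genes raised in K57N cells. Of the 21, 13 were above the background limit on every WT and F53S array. The others passed the filter on dim probes only through the F53S arrays, where they were higher.

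No single gene passed the test across all genes. With the slide in the limma fit, 0 of 18334 genes reached an adjusted p below 0.05, higher (0%) or lower (0%), and the lowest adjusted p was 0.0691. It was shared by 8 genes, SPRY4, GDF15, MAFF, SRPX2, DUSP6, ETV4, CGA and PHLDA2. At an unadjusted p below 0.05, 411 genes were higher (2.24%) and 315 lower (1.72%), and with more than 2-fold as well 37 were higher (0.202%) and 5 lower (0.0273%). The methods' t-test, with adjustment, also called 0 genes (before adjustment, at p below 0.05 and over 2-fold, 21 higher and 0 lower). Calls appeared without WT replicate 1 (DUSP6, ETV4, MMP1, SPRY4 and SRPX2, 5 genes) and without F53S replicate 2 (3 genes, of which SPANXN3 is among the 46), and with normexp background correction 6 genes were called. Of the 18334 genes 29 had an adjusted p below 0.15 (limma), and 28 of these were higher in F53S cells. Among the 29, 23 were of the 46 (0.251% of all genes) and 13 were in the ERK lists, which held 69 tested genes. The same differences chose the 46, so nothing is read from that overlap. RNA was taken from whole cultures, so a small difference in every cell and a larger one in some of the cells cannot be told apart.

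**Figure D1:**
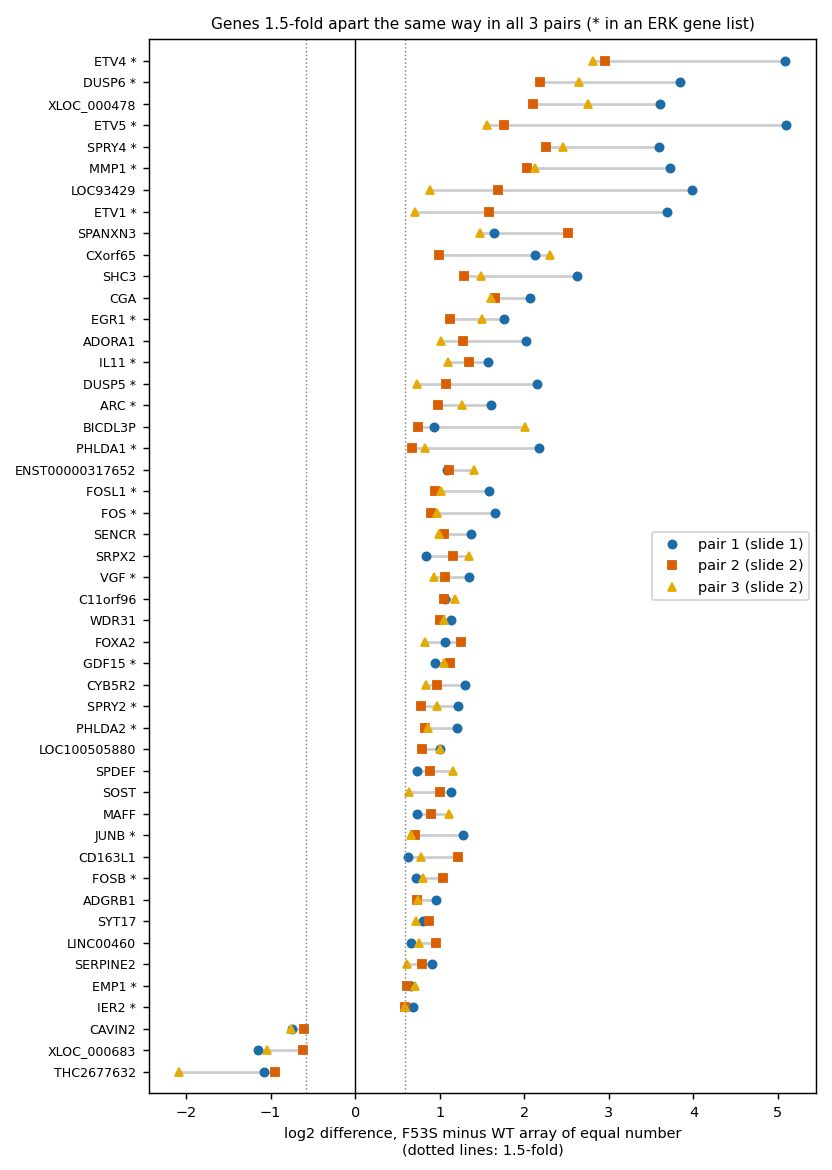
Log2 difference between the F53S and the WT array in pair 1 (circles, slide 1), pair 2 (squares) and pair 3 (triangles, slide 2) for 48 of the 49 genes that were at least 1.5-fold apart in the same direction in all 3 pairs. Dotted lines mark 1.5-fold, stars mark the 21 genes of the ERK lists, and 45 higher genes stand against 3 lower ones. The points of XLOC_000478, LOC93429, CXorf65, SENCR, CYB5R2 and THC2677632 rest on signals below the background limit in 1 line, where the text gives a bound.

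The PEA3 factors are ETS transcription factors that ERK output induces, and ETV4 had the largest mean difference of the 46 genes. ETV4 (chr17:41605966-41606025) read -4.93, -3.83 and -3.54 on the WT arrays and 0.15, -0.88 and -0.74 on the F53S arrays. Every F53S array lay above every WT array, and the difference of the means was 3.61 on the log2 scale (SE 0.40, 12.2-fold, adjusted p = 0.0691, limma). ETV5 (chr3:185764547-185764606) read -6.04, -3.39 and -3.19 in WT cells and -0.95, -1.62 and -1.63 in F53S cells, a difference of 2.81 (SE 0.63, adjusted p = 0.574). ETV1 (chr7:13934085-13934144) read -6.06, -3.17 and -2.39 in WT and -2.37, -1.58 and -1.68 in F53S cells, where the lowest F53S array only just exceeded the highest WT array, and its difference was 1.99 (SE 0.51, adjusted p = 0.787). All 3 probes were below the background limit on WT array 1, and their differences were larger on slide 1, with 5.08, 5.10 and 3.68, than on slide 2, where the pairs gave 2.96 and 2.81 for ETV4, 1.76 and 1.56 for ETV5 and 1.59 and 0.71 for ETV1. Without WT replicate 1 the difference was 2.98 for ETV4, 1.745 for ETV5 and 1.17 for ETV1. A second ETV1 probe did not follow the first, with 0.84, 0.56 and -1.84 in the 3 pairs. Of the other 5 ETS and MYC genes tested, ELK4 differed by 0.36 (adjusted p = 1.0) and was higher in all 3 pairs, and MYC, a proto-oncogene whose protein ERK stabilizes, by -0.03 (95% interval -0.48 to 0.42).

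**Figure D2:**
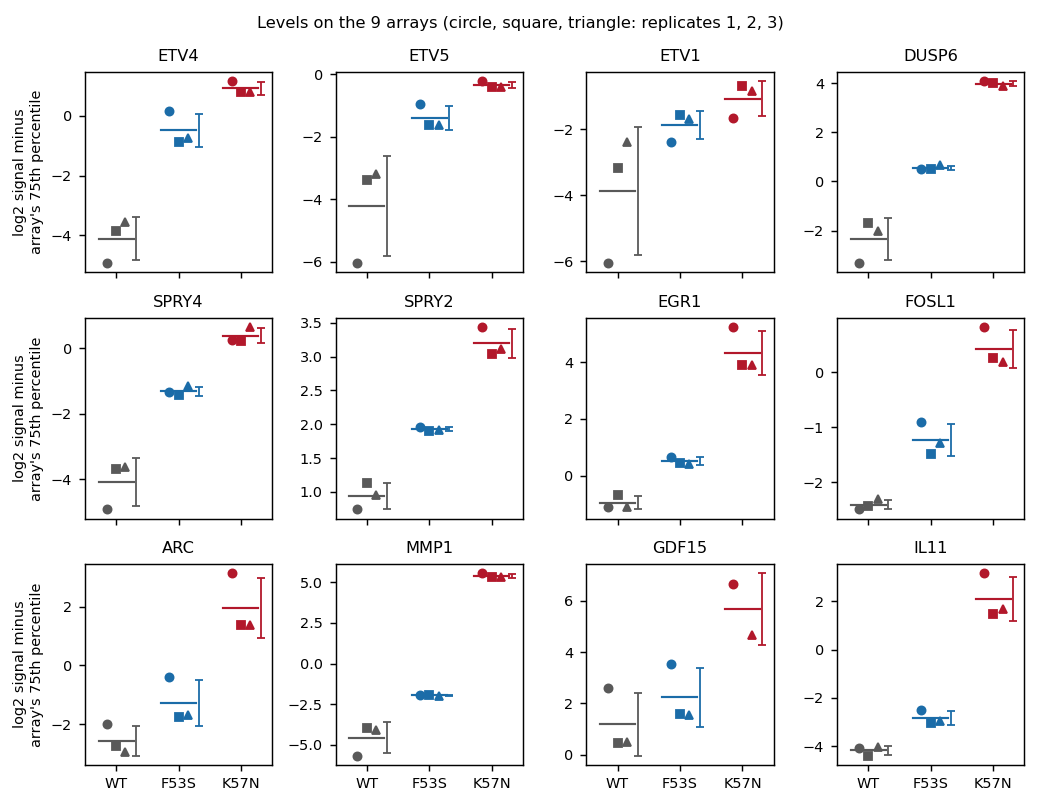
Log2 signal minus the 75th percentile of the array for 12 genes of the ERK lists on the 9 arrays, with a bar for the mean and an error bar for the SD of the replicates of each line. The F53S arrays lie above the WT arrays in 11 of the 12 genes and overlap for GDF15, where the slides differ more than the lines. All 12 were taken from the 46 higher genes, so their choice largely fixed this count. Of all genes, 1.42% had every F53S array above every WT array and 1.63% had every F53S array below.

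The 15 tested inhibitors of the pathway had a median log2 difference of 0.48, against 0.01 over all genes, with 10 of the 15 higher in all 3 pairs (16.1% of all genes) and 4 of them by at least 1.5-fold in each (0.251% of all genes). At an adjusted p below 0.05 there were 0, and at an unadjusted p below 0.05 8 were higher (2.24% of all genes, limma). The median was 0.25 without WT replicate 1 and 0.29 over the genes above background on all 6 arrays. DUSP6, the cytoplasmic phosphatase specific for ERK, stood out (chr12:89742144-89742203). It read -3.33, -1.70 and -2.01 in WT cells and 0.51, 0.49 and 0.65 in F53S cells, so that the F53S arrays agreed closely while the WT arrays spread, and it differed by 2.90 (SE 0.31, 7.45-fold, adjusted p = 0.0691, limma). SPRY4 (chr5:141690571-141690630) read -4.93, -3.69 and -3.62 in WT and -1.33, -1.43 and -1.16 in F53S cells, with no overlap and a difference of 2.77 (SE 0.26, adjusted p = 0.0691). This probe was below the background limit on WT array 1, and its pairs gave 3.59, 2.26 and 2.46. A second SPRY4 probe was higher as well but by less, with 0.56, 0.45 and 0.64 in the 3 pairs. SPRY2 (chr13:80910622-80910681) read 0.74, 1.13 and 0.95 in WT and 1.96, 1.91 and 1.91 in F53S cells, a difference of 0.99 (SE 0.14, adjusted p = 0.119). This probe was well above background on all 6 arrays, and its 3 pairs gave 1.22, 0.78 and 0.96.

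DUSP5, a nuclear ERK phosphatase, read -4.15, -3.39 and -3.03 in WT and -2.0, -2.32 and -2.29 in F53S cells, a difference of 1.32 (adjusted p = 0.740, limma). Its pairs gave 2.14, 1.07 and 0.74, the probe was below the background limit on WT array 1, and without that array the difference was 0.81. The other members of the group differed by less. DUSP4, the related nuclear phosphatase, missed the 1.5-fold limit in pairs 2 and 3 with 1.1, 0.52 and 0.57, and SPRY1, SPRED1 and SPRED2 were higher in all 3 pairs with mean differences of 0.57, 0.46 and 0.48. DUSP1 differed by 0.12 and was higher in 2 of 3 pairs, and the sign turned without WT replicate 1 (-0.14) and on slide 2 alone (-0.012). In the list of 10 readouts of ERK output, which shares genes with these groups, the median difference was 1.11, with 9 of 10 higher in all 3 pairs (16.1% of all genes), and 0.68 over the genes above background on all 6 arrays. The exception was the receptor EPHA4 with -0.17, and the receptor EPHA2 gave 0.98, 0.32 and 0.58 in the 3 pairs (mean 0.63, and 0.34 without WT replicate 1) and cyclin D1 (CCND1) 0.29, 0.09 and 0.28.

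Of the 26 tested immediate early genes 15 were higher in all 3 pairs (16.1% of all genes) and 7 were so by at least 1.5-fold in each (0.251% of all genes), while 3 were lower in all 3 pairs (15.7% of all genes). The median of the list was 0.14, or 0.24 without F53S replicate 1. EGR1, a zinc finger factor (chr5:137804891-137804950 of hg19), read -1.09, -0.68 and -1.09 in WT and 0.67, 0.44 and 0.41 in F53S cells. The groups did not overlap, and the difference was 1.46 (SE 0.29, adjusted p = 0.365, limma). ARC, a gene of activity-dependent transcription in neurons (chr8:143692579-143692638), read -1.98, -2.74 and -2.96 in WT and -0.38, -1.76 and -1.70 in F53S cells, a difference of 1.28 (SE 0.17, adjusted p = 0.119). FOSL1, an AP-1 subunit whose protein ERK stabilizes (chr11:65660098-65660157), read -2.49, -2.42 and -2.31 in WT and -0.90, -1.48 and -1.29 in F53S cells, a difference of 1.18 (SE 0.16, adjusted p = 0.119).

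The other FOS-family genes differed by less than FOSL1 in mean: FOS gave 1.65, 0.90 and 0.96 in the 3 pairs (mean 1.17, and 0.74 without WT replicate 1) and FOSB 0.72, 1.04 and 0.81. JUNB gave 1.28, 0.71 and 0.66, and IER2 0.68, 0.59 and 0.59, with the smallest mean among the 46 (0.62). JUN itself, the partner of the FOS proteins, was lower in all 3 pairs with -0.05, -0.20 and -0.27 (mean -0.17, adjusted p = 1.0, limma). EGR2 and IER3 were higher in all 3 pairs but not by 1.5-fold in each, with 0.28, 0.55 and 1.12 for EGR2 and 0.90, 0.43 and 0.63 for IER3. The lowest value of the list was that of NR4A2, with -0.70, 0.23 and -2.51, which differed in sign between the pairs of slide 2.

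The upstream sequence of EGR1 is shown because it was the 1 gene among the promoters matched for the 46 higher genes that held a CArG box, the motif bound by serum response factor. Promoters in RefSeq (GRCh38.p14) matched 29 of the 46 genes, with 40 promoters, and the 250 bases before each start were searched on both strands. The stretch below runs from chr5:138465229-138465478, plus strand, with the CArG boxes in capitals.
EGR1: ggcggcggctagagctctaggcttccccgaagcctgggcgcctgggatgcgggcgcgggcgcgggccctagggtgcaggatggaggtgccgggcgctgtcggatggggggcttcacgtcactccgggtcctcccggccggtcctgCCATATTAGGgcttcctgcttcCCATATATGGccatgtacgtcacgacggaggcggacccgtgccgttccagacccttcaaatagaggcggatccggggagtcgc
The 2 boxes began 105 and 83 bases before the start. A CArG box stood in 1.16% of all 35093 promoters and in 1 of the 40. The ETS motif GGAAGT stood in 19.5% of all promoters and in 8 of the 40 (20.0%), among them those of JUNB, FOSB, IER2 and SPRY2. These matches describe letters only.

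The late targets, which code for membrane and secreted proteins, had a median difference of 0.47 over 16 tested genes, or 0.30 over those above background on all 6 arrays, and 12 of the 16 were higher in all 3 pairs (16.1% of all genes). MMP1, the interstitial collagenase (chr11:102660697-102660756 of hg19), read -5.66, -3.95 and -4.09 in WT and -1.94, -1.92 and -1.97 in F53S cells. The F53S arrays were nearly identical and lay well above the WT arrays, the first of which was below the background limit, and the difference was 2.62 (SE 0.35, adjusted p = 0.119, limma), or 2.04 without that array. IL11, a cytokine of the IL-6 family (chr19:55875788-55875847), read -4.08, -4.40 and -4.05 in WT and -2.51, -3.05 and -2.95 in F53S cells, a difference of 1.34 (SE 0.28, adjusted p = 0.415). The IL11 probe was below the background limit on WT array 1. VGF, a secreted neuropeptide precursor (chr7:100805799-100805858), read -0.77, -1.68 and -1.67 in WT and 0.58, -0.61 and -0.75 in F53S cells, a difference of 1.11 (SE 0.17, adjusted p = 0.143). On slide 1 both lines read higher for VGF than on slide 2, and within each slide F53S cells lay above WT cells.

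GDF15, a stress-induced cytokine of the TGF-beta family, differed more between the slides than between the lines (chr19:18499890-18499949). It read 2.61, 0.46 and 0.51 in WT and 3.55, 1.58 and 1.56 in F53S cells, so that the groups overlapped over the slides, but its 3 pairs were close together with 0.94, 1.12 and 1.05 (mean 1.04, SE 0.09, adjusted p = 0.0691, limma). PHLDA2, an imprinted gene of growth control in the placenta, gave 1.21, 0.82 and 0.86. EMP1, a membrane protein of epithelial cells, gave 0.65, 0.61 and 0.70. Others stayed below the 1.5-fold limit in at least 1 pair, such as the protease PLAU with 0.71, 0.47 and 0.50, the cytokine LIF with 0.26, 0.44 and 0.43, and TFPI2, a protease inhibitor, with 0.54, 0.51 and 0.77. The receptors PLAUR and CD44 differed by 0.23 and 0.12.

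The upstream sequences of IL11 and VGF are shown because each held a motif that the AP-1 or CREB factors bind, in the 250 bases before the start (GRCh38.p14, RefSeq). IL11 runs over chr19:55370464-55370713 on the minus strand, with TGANTCA in capitals, and VGF over chr7:101165570-101165819 on the minus strand, with TGACGTCA in capitals.
IL11: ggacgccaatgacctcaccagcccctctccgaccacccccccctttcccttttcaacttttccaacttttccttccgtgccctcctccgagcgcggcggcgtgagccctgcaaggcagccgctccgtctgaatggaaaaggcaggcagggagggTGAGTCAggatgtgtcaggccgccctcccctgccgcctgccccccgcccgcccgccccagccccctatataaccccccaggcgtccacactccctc
VGF: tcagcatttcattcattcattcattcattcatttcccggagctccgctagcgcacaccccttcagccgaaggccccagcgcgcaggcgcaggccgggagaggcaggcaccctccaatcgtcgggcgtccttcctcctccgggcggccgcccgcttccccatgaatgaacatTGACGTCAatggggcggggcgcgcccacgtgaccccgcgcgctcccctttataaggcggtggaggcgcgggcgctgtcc
TGANTCA stood in 6.57% of all promoters and in 4 of the 40 (EMP1, IL11, LINC00460 and SRPX2), and TGACGTCA in 1.65% and in 3 of the 40 (CGA, MAFF and VGF). The motifs do not overlap each other in these stretches.

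The other 25 of the 46 higher genes were in no ERK list, and those named here that the rule for named genes does not cover were named after their values were seen. Secreted proteins and their relatives were CGA, the alpha subunit of the glycoprotein hormones, SRPX2, SERPINE2 (a serine protease inhibitor) and SOST, the WNT inhibitor of bone. CGA read -4.19, -4.46 and -4.58 in WT and -2.12, -2.81 and -2.98 in F53S cells, a difference of 1.78 (SE 0.20, adjusted p = 0.0691, limma) with no overlap. The CGA probe was below the background limit on WT array 1, and with normexp background correction the difference was 0.74. SRPX2 read -2.73, -2.87 and -2.95 in WT and -1.88, -1.71 and -1.61 in F53S cells, a difference of 1.12 (SE 0.12, adjusted p = 0.0691) with a probe well above background throughout. SERPINE2 and SOST differed by 0.77 and 0.92.

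Transcription factors in this set were MAFF, a small MAF protein, with 0.73, 0.90 and 1.11 in the 3 pairs (adjusted p = 0.0691, limma), the pioneer factor FOXA2 with 1.06, 1.251 and 0.82, and SPDEF, an epithelial ETS factor, with 0.74, 0.89 and 1.16. Receptors and signaling proteins were ADORA1, the adenosine A1 receptor, with 2.02, 1.28 and 1.02, the adhesion receptor ADGRB1 with 0.96, 0.73 and 0.74, and SHC3, an adaptor of receptor tyrosine kinases in neurons, with 2.62, 1.28 and 1.49. ADORA1 was the 1 gene among the 365 tested genes of all other lists that reached 1.5-fold in all 3 pairs, which is close to the 0.251% among all genes. SPANXN3, a gene of the testis, gave 1.64, 2.51 and 1.47, C11orf96 1.06, 1.05 and 1.18, SYT17, a synaptotagmin, 0.80, 0.87 and 0.72, and CD163L1, a scavenger receptor, 0.62, 1.21 and 0.78. WDR31, LOC100505880 and the long non-coding RNA LINC00460 differed by 1.06, 0.93 and 0.79, and BICDL3P and ENST00000317652 by 1.22 and 1.2 with overlap of the groups, and by 0.67 and 0.74 without F53S replicate 3. Among the genes named here, ADORA1, SHC3, SPANXN3, CD163L1, WDR31, LINC00460, BICDL3P and ENST00000317652 were below the background limit on WT array 1. With normexp background correction ADORA1 differed by 0.41.

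A further 5 of the 46, XLOC_000478, LOC93429, CXorf65, SENCR and CYB5R2, stayed below the background limit on each of the WT arrays and have only a bound in WT cells. Set against the lowest signal that counted as well above background, they were at least 3.52-fold, 2.32-fold, 1.58-fold, 1.86-fold and 1.71-fold higher in F53S cells, with adjusted p of 0.597, 0.642, 0.215, 0.415 and 0.0703 (limma). In all, 22 of the 46 were below the background limit on WT array 1 and 24 were above it on all 6 arrays, and the part of dim WT signals in the differences was not tested. Among the 17271 genes above the limit on all 6 arrays, 24 were at least 1.5-fold higher in all pairs (0.139%) and 0 were lower (0%), and 13 of the 24 were in the ERK lists. In 36 of the 46 every F53S array lay above every WT array, which was so for 1.42% of all genes, while in 1.63% every F53S array lay below every WT array, and since the same differences chose the 46 nothing is read from this. Just inside the 1.5-fold limit stood IER2 and just outside TRPC2 with 0.71, 0.58 and 0.73, PAMR1 with 0.97, 0.56 and 0.78 and LMO2 with 0.68, 0.56 and 0.56, named after their values were seen.

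On the lower side, CAVIN2, a caveolar coat protein, read -2.87, -1.59 and -1.63 in WT and -3.61, -2.20 and -2.38 in F53S cells, with a difference of -0.70 (SE 0.24, adjusted p = 1.0, limma) and overlap of the groups. XLOC_000683 read -3.23, -2.85 and -2.41 in WT and -4.38, -3.46 and -3.46 in F53S cells, with no overlap and a difference of -0.94 (SE 0.13, adjusted p = 0.119). CAVIN2 and XLOC_000683 were each above the background limit on only 2 of the 3 F53S arrays. The transcript THC2677632 stayed below the background limit on each F53S array and was at least 2.07-fold lower there (adjusted p = 1.0). Just outside the limit were ERBB4, a receptor of the EGF receptor family, with -0.72, -0.66 and -0.58, IGFBP5 with -0.97, -0.56 and -1.08, and the collagen gene COL4A4 with -1.251, -0.56 and -0.56. These 3 were named after their values were seen.

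The 21 other lists had medians near that of all genes. They ran from -0.13 (markers of other cell types) to 0.11 (EMT genes), and none but the list of neuroactive receptors held a gene that was at least 1.5-fold apart in all 3 pairs. By sign, 86 of their 365 tested genes (23.6%) were higher in all 3 pairs and 57 lower, where 16.1% of all genes were higher. Of the 12 NF-kappaB targets 6 were higher and 0 lower, with 3 higher at an unadjusted p below 0.05 in the limma fit, and of the 15 p53 targets 7 were higher and 2 lower. Of the 50 cardiomyopathy genes 12 were higher and 6 lower, with 6 higher and 0 lower at that p, which 2.24% of all genes reached on the higher side. The 28 tested genes of the RAS, RAF, MEK and ERK cascade itself had a median of 0.03, with differences between -0.20 and 0.25. The 50 tested cardiomyopathy genes had a median of 0.03, the 26 proliferation genes 0.03 and the 20 ATF4 targets 0.04. Single genes with the same sign in all 3 pairs included TGFB1 with 0.56, 0.46 and 0.56, ICAM1 with 0.79, 0.42 and 0.50 and the kinase gene PLK3 with 0.71, 0.49 and 0.57, and ALDH1L2, an ATF4 target, with -1.31, -0.69 and -0.34. These 4 were named after their values were seen, and their adjusted p lay between 0.19 and 0.57 (limma).

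Genes were then chosen by the 1.5-fold limit in the pairs of slide 2 and read on slide 1, which had a part in the choice through the filter on dim probes. In both pairs of slide 2, 71 genes (0.388%) were at least 1.5-fold higher and 17 (0.0929%) lower. On slide 1, 59 of the 71 (83.1%) were higher as well, with a median difference of 0.91, where 58.6% of all genes were higher and the median was 0.05. Of the 17 lower genes, 8 (47.1%) were lower on slide 1, with a median of 0.03, where 41.4% of all genes were lower. The ERK lists held 21 of the 71, and all 21 were at least 1.5-fold higher on slide 1, as were 25 of the 50 other genes and 3.64% of all genes. These 21 and 25 genes are the 46 described above, and the lists were drawn up with earlier results known. Nothing further is read from this split.

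With a filter on slide 2 alone, chosen after seeing the data, slide 1 had no part in the fold limit or the filter. The ERK lists were drawn up with earlier results of these data known, so their counts below are a description. Then 125 of 176 higher genes (71.0%, median 0.21) and 39 of 90 lower genes (43.3%, median 0.06) kept their direction on slide 1, where 57.5% of all genes were higher and 42.5% lower. Of the 22 genes of the ERK lists among the 176, all 22 were at least 1.5-fold higher on slide 1, as were 43 of the 154 others and 5.03% of all genes. Among genes above the background limit on all 6 arrays, 31 of 35 higher genes (88.6%) and 4 of 7 lower genes (57.1%) kept their direction, against 59.3% and 40.7% of all genes. Chosen the other way, on slide 1, 667 genes were at least 1.5-fold higher and 614 lower, and in both pairs of slide 2 239 (35.8%) and 258 (42.0%) of them had the same sign, against 24.4% and 31.0% of all genes.

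K57N cells show where the F53S values stood relative to a stronger mutant, and both comparisons share the same WT arrays. The median log2 difference from WT over the 46 higher genes was 1.13 in F53S and 3.08 in K57N cells, against 0.01 and -0.07 over all genes. The 46 were chosen on the F53S values, and 5 of them have only a bound in WT cells, so these medians are a description. In K57N cells the limma fit called 340 genes higher (1.85%) and 378 lower (2.06%). Some of the 46 had a smaller value in K57N than in F53S cells. WDR31, above the background limit on 2 WT arrays, was at 0.25 in K57N and 1.06 in F53S cells, and BICDL3P, above it on 2 WT arrays and 1 K57N array, at 0.37 and 1.22. SHC3 and ENST00000317652 were above the limit on 1 WT array each and on 2 K57N arrays each, so their differences from WT rest mostly on dim signals. XLOC_000478 and LOC93429 were below the background limit on each WT and each K57N array, so no difference between those is given. All of these were chosen for being high on the F53S arrays, so their difference between the mutants is a description. SHC3 read -5.03, -4.12 and -4.04 in K57N cells, against -2.77, -3.67 and -3.43 in F53S cells.

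The distance between the mutants was read by group of ERK genes. K57N minus F53S was tested in the limma fit of all 9 arrays, where the WT arrays count in the estimate of the spread, and at an adjusted p below 0.05 K57N was higher for 5.52% of all genes tested and lower for 8.33%. A fit of the 6 K57N and F53S arrays alone, added after seeing the data, gave 2.87% and 3.62%. For the PEA3 factors the difference was 1.41 for ETV4 (95% interval 0.50 to 2.32, adjusted p = 0.0539), 1.06 for ETV5 (-0.39 to 2.52, adjusted p = 0.280) and 0.81 for ETV1 (-0.38 to 1.99, adjusted p = 0.309), none of which passed the threshold. In the fit of the mutants alone all 3 passed, with intervals of 1.04 to 1.78, 0.74 to 1.39 and 0.54 to 1.07 and adjusted p of 0.00969, 0.0144 and 0.0174 (limma), so this call changed with the arrays that entered the estimate of the spread. F53S minus WT was 3.61, 2.81 and 1.99 for these genes and K57N minus WT 5.02, 3.87 and 2.80. Among the inhibitors, SPRY4 rose by a further 1.69 in K57N cells (1.09 to 2.29, adjusted p = 0.00707) and DUSP6 by 3.43 (2.70 to 4.16, adjusted p = 7.96e-04), and 9 of 15 passed in that direction (8 in the fit of the mutants alone). SPRY1 exceeded WT by 0.57 in F53S (0.35 without F53S replicate 1) and by 0.34 in K57N cells, with a difference between the mutants of -0.22 (-0.58 to 0.13, adjusted p = 0.345).

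For the immediate early and late genes named next, the larger part of the distance from WT to K57N cells lay between F53S and K57N cells. JUNB was 0.88 above WT in F53S and 4.39 in K57N cells, EGR1 1.46 and 5.29 and FOSB 0.86 and 3.79, and K57N exceeded F53S by 3.5, 3.83 and 2.93 (adjusted p = 2.38e-05, 3.14e-04 and 2.01e-05, limma). In that direction 15 of 26 immediate early genes passed (14 in the fit of the mutants alone). MMP1 was 2.62 above WT in F53S and 9.96 in K57N cells, IL11 1.34 and 6.29 and GDF15 1.04 and 4.13 (with the spot of K57N replicate 2 left out), and 13 of 16 late targets were higher in K57N than in F53S cells in both fits. ADORA1 exceeded its WT level by 1.44 in F53S cells and by 1.88 in K57N cells, and the mutants differed by 0.44 (-0.05 to 0.93, adjusted p = 0.200, and 0.0716 in the fit of the mutants alone, limma). MYC differed by -0.03 and 0.30.

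**Figure D3:**
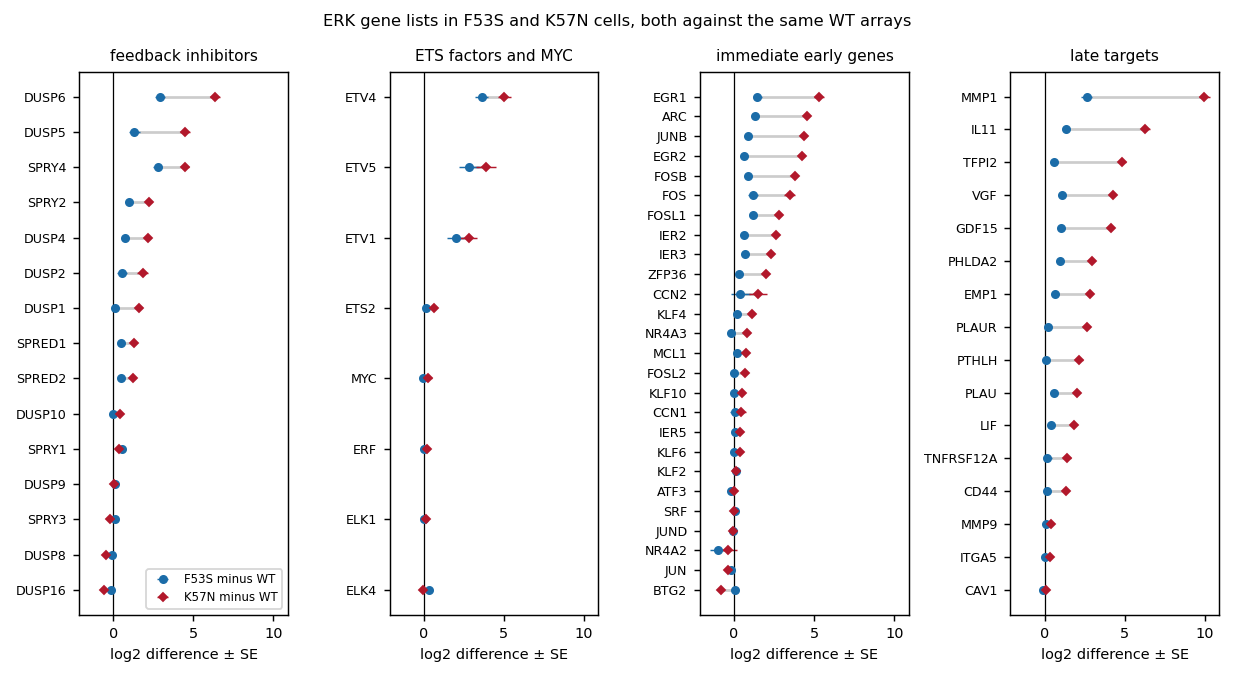
Log2 difference from WT in F53S cells (circles) and K57N cells (diamonds), with the SE of the limma fit, for the tested genes of 4 ERK lists, ordered by the K57N value. The gap between both is 0.81 to 1.41 for ETV1, ETV5 and ETV4 and 7.34 for MMP1, and both use the same WT arrays.

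Among the genes the study names for its expression patterns, TFPI2 is described above, and DEPP1 gave -0.04, -0.20 and -0.32 in the 3 pairs. COL14A1 depended on the probe: the brighter one gave -0.38, -0.06 and 0.22, and the other, well above background on 1 WT and 3 F53S arrays, gave 1.04, 0.42 and 0.90 (mean 0.79, SE 0.35, adjusted p = 1.0, limma). DMRT1 passed the background limit on 2 arrays of each line and read -3.48, -6.39 and -4.44 in WT and -5.13, -4.64 and -3.88 in F53S cells, with overlap. The 2 probes of CEMIP were well above background on at most 1 array of each line. DMRT1 and CEMIP were therefore not tested.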

How the data were processed

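Cy3-labeled cRNA from the 3 stable HEK293 lines (WT, F53S and K57N) was measured on 9 Agilent 1-color arrays, 3 per line. The authors deposited the scanner output of each array, made with Agilent Feature Extraction 10.10.1.1 per the labels, which holds the processed signal, an intensity from which background and trends across the array had been removed, and a series table of log2 values, which match the log2 of that signal, shifted by 1 number per array, to within 0.00677. The normalization between arrays is not given in the sources used here. Control spots and 278 to 501 outlier spots per array were dropped, spots of a probe were averaged, and each array was centered on its 75th percentile. Of 50598 probes, 28172 were named by RefSeq accession and 3239 by a current symbol. Positions are those of the array's annotation (hg19). A probe was tested if well above background on all 3 WT or all 3 F53S arrays, and a gene was represented by its brightest probe.

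The 9 arrays were fitted with limma 3.58.1 (R 4.3.3) with slide as a covariate, with Benjamini-Hochberg adjustment over all probes, and a gene was called at more than 2-fold with an adjusted p below 0.05. The fit was tested on simulated data. Tables and plots used Python 3.11.15, pandas 2.3.3 and matplotlib 3.10.9. The number of arrays limits the precision: the median SE of a log2 difference was 0.13. Bounds set the dim group, on each array, at the higher of its own value and the lowest signal well above background.

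Replicate numbers paired the arrays: deviations from the line means correlated with r of 0.89, 0.80 and 0.69 for numbers 1, 2 and 3, where number 1 was slide 1 and the others slide 2, and within slide 2 with r of 0.24, which the slide term does not cover. The F53S cells, the gene lists and the tests were chosen with earlier results of these data known. Named were the genes of the ERK lists, genes of other lists that were at least 1.5-fold apart in all 3 pairs, the 12 largest rises and falls of that kind above background on all 6 arrays, the 5 lowest adjusted p, the study's own examples and MAP2K1. Others are stated as named after their values were seen, and 1 of the 46 higher genes is not reported here by name. Alternatives were no slide term, a replicate block, 6 arrays only, the methods' t-test, normexp (offset 50), quantile normalization, other filters, the mean of a gene's probes, the deposited table, other fold limits, leaving out each array and, added later, slide 2 alone, a filter on slide 2 and a fit of the K57N and F53S arrays alone.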

Additional observations from a re-analysis of the deposited data

How the results depend on the processing

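The 46 genes that were at least 1.5-fold higher in all pairs kept their direction in 760 of 760 further values under the other settings. Their choice for being higher on these same arrays largely fixed this, so nothing is read from it. The calls changed with single arrays and with the background correction, and the cause was not tested. Genes called higher numbered 0 under no slide term, with the replicate block that uses the pairing of the arrays (0 higher and 0 lower, smallest adjusted p = 0.164, limma), with 6 arrays, in the methods' t-test with adjustment (smallest adjusted p = 0.859), with quantile normalization, no filter, the mean of a gene's probes and the deposited table. They numbered 6 with normexp (DUSP6, ETV4, ETV5, GDF15, MMP1 and SPRY4) and 5 on slide 2 alone (DUSP6, ETV4, ETV5, MMP1 and SRPX2), a setting chosen after seeing the data. Leaving out 1 array gave between 0 and 5 higher and 0 lower: 5 without WT replicate 1 (DUSP6, ETV4, MMP1, SPRY4 and SRPX2) and 3 without F53S replicate 2 (OMD, SNORD114-11 and SPANXN3). The 2 remaining arrays of a line were then assumed to vary like the others. Genes at least 1.5-fold higher in every pair numbered 143 at a log2 limit of 0.32, 15 at 2-fold, 177 with no filter, 20 with normexp and 24 above background on all 6 arrays, and lower ones 76, 0, 113, 0 and 0, with 5 by quantile normalization and 1 over all 5 pairs within slides. With 1 array left out, and so 2 pairs, they numbered between 76 (without WT replicate 1) and 177 (without F53S replicate 1) higher and between 28 (without F53S replicate 1) and 91 (without WT replicate 1) lower, with fewer pairs to pass and, in the filter, fewer arrays (18422 to 20154 genes tested against 18334). The share of genes chosen as higher on slide 2 that were higher on slide 1 was 100% with normexp, 67.3% with no filter and 71.0% with the filter on slide 2, and 35.8% when slide 1 chose and slide 2 was read. Genes higher in K57N than in F53S cells numbered 1012 in the fit of 9 arrays and 527 in that of the 6 K57N and F53S arrays alone, and lower ones 1528 and 663. List medians changed as follows: ERK output 0.68 above background on all 6 arrays, feedback inhibitors 0.32 with normexp and 0.29 above background on all 6 arrays, ETS factors 0.036 above background on all 6 arrays, immediate early genes 0.19 with no filter, and late targets 0.38 with normexp, 0.46 on slide 2 and 0.30 above background on all 6 arrays. With 1 array left out the medians lay between 0.84 and 1.24 (ERK output), 0.25 (without WT replicate 1) and 0.58 (feedback inhibitors), 0.26 and 0.29 (ETS factors), 0.13 and 0.24 (without F53S replicate 1; immediate early genes) and 0.40 and 0.56 (late targets). Sign changes were those of COL14A1 (0.36 with the mean of its probes, 0.079 on slide 2 alone and between -0.22 and 0.25 with 1 array left out, positive without F53S replicate 2 and without WT replicate 1), DUSP1 (-0.012 on slide 2 alone and between -0.14, without WT replicate 1, and 0.26 with 1 array left out) and MYC (between -0.24 and 0.12 with 1 array left out, positive without F53S replicate 1 and without WT replicate 2), and the cause was not tested.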
